A study of Mus musculus with 14 samples.

Results

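The 10 genes described here carry glucose into the cell and break it down to lactate. They are the glucose transporters Slc2a1 and Slc2a3, the hexokinases Hk1 and Hk2, and the enzymes Pfkp, Aldoa, Gapdh, Pgk1, Pkm and Ldha. They were chosen by symbol, as 10 of the 55487 genes in the deposited count table, and all 10 passed the filter on low counts. The samples were 14 RNA sequencing libraries of mast cells sorted from the ear skin of mice, with up to 100 cells in a library. Untreated mice gave 5 libraries of resident mast cells (libraries 1 to 5). Mice treated with MC903 gave 5 libraries of resident mast cells (libraries 6 to 10) and 4 libraries of cells that the labels call bone marrow mast cells (numbers 11, 13, 14 and 15). MC903 is calcipotriol, a vitamin D analogue that is painted on mouse skin to produce a dermatitis resembling atopic dermatitis.

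The protocol names resident mast cells and cells positive for integrin β7, a homing receptor of mast cell progenitors. The bone marrow label is kept below as the group's name, since the labels do not state in words that it stands for the integrin β7-positive sort. Strain, age, sex and the length of the treatment were not given in the sources used here, and no transgene or deletion is named for any group. There was no group of such cells from untreated skin, so among these cells treatment and cell kind cannot be told apart. No label ties a library to an animal, so p-values measure only the spread between these libraries, which may be technical.

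Mast cells are tissue cells filled with granules of proteases and histamine, and glycolysis supplies ATP and carbon for their growth and activation. Glucose enters through transporters of the SLC2 family and is trapped by phosphorylation. Phosphofructokinase commits it to glycolysis, aldolase splits the 6-carbon sugar, and the lower enzymes recover ATP and NADH on the way to pyruvate. Lactate dehydrogenase then turns pyruvate into lactate, which regenerates the NAD that glyceraldehyde-3-phosphate dehydrogenase needs. Many of these genes are classical targets of the hypoxia-inducible factor, which binds sites with the core ACGTG, and of MYC, which binds CACGTG.

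The windows just before the transcription start of these genes are shown because the same genes are compared below as a group. RefSeq windows of 250 bases before a start (GRCm38.p6) were matched by symbol for 9 of the 10 genes, and Slc2a3 was not matched. ACGTG, read on both strands (CACGT on the other), occurred in the windows of 6 of the 9, namely Slc2a1, Hk2, Aldoa, Pgk1, Pkm and Ldha. It occurred for 18.5% of all 27025 genes with a window. CACGTG, which holds ACGTG on both strands, occurred in Ldha alone of the 9, against 6.86% of all genes. The 14 windows of these 9 genes were richer in G and C (median 62.8%, against 52.4% over all windows), and the shares were not adjusted for this. In Slc2a1 and Pkm the parts of the matching window free of annotated exon, 216 and 110 bases, held no match. The 4 full windows below overlap no annotated exon and hold a match. They are written in the direction of transcription, with ACGTG or CACGT in capitals. A match is a description of the sequence and no evidence of binding.
Hk2 (chr6:82774455-82774704, minus strand, the 250 bases before the gene): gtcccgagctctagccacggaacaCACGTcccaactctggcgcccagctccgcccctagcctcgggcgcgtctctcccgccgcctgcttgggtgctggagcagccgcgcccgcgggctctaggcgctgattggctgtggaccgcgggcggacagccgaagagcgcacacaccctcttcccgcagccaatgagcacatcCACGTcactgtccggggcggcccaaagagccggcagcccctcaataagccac
Aldoa (chr7:126799255-126799504, minus strand, before a start inside the annotated gene): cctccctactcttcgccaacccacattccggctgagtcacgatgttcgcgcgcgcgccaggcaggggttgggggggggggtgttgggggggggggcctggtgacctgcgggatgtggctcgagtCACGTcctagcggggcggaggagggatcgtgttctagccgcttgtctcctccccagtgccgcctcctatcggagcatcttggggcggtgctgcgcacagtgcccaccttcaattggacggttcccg
Pgk1 (chrX:106186850-106187099, plus strand, the 250 bases before the gene): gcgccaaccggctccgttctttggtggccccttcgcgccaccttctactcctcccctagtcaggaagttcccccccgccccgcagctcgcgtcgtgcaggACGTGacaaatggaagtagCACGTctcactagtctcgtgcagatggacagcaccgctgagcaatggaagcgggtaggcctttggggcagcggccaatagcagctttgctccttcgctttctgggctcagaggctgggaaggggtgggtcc
Ldha (chr7:46845554-46845803, plus strand, before a start inside the annotated gene): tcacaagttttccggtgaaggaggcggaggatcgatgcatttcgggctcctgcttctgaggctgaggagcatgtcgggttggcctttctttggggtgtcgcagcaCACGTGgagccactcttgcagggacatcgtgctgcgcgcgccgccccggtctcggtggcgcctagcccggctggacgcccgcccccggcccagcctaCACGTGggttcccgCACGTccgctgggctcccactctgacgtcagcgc

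Hk2 and Pgk1 each held 2 runs of capitals and Aldoa held 1. Ldha held 3, of which 2 were CACGTG. Of the genes with a match, Aldoa, Pgk1 and Pkm passed the test in bone marrow against MC903 resident cells, as described below. Slc2a1, Hk2 and Ldha did not. Gapdh, which has no match, passed it too, and Slc2a1 and Aldoa were called lower in MC903 resident against untreated cells. A link between match and call was not tested.

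The libraries were checked against their labels before the genes were compared. All 9 mast cell markers had a mean of at least 10 CPM (counts brought to a common library size with TMM factors) in each group. Their summed level ran from 84555 to 110035 CPM in untreated resident, from 104725 to 159329 in MC903 resident and from 102358 to 154700 CPM in bone marrow libraries. Single markers moved in different ways. In MC903 resident cells Ms4a2, Hdc and Gata2 were lower in every library than in any untreated one. Fcer1a, Tpsb2 and Mcpt4 were higher in the same way, and Kit, Cpa3 and Cma1 overlapped. Mcpt4 was at 7057 to 9900 CPM in bone marrow libraries, below all resident ones. Kit was at 786 CPM in untreated library 5 and at 1715 to 2025 CPM in the other untreated libraries. Bone marrow library 15 stood apart. Its 7 markers of macrophages and dendritic cells summed to 5764 CPM, including Csf1r at 1100 CPM and C1qa at 786 CPM, against 82.9 to 170 CPM in libraries 11, 13 and 14. The same sum ran from 31.1 to 74.5 CPM in untreated and from 28.3 to 61.4 CPM in MC903 resident libraries, and C1qa was at 0 in every untreated library. The high sum of library 15 did not extend to Itgax and Cd207, which were at 2.63 and 0.15 CPM there. Both were at 0 in libraries 11, 13 and 14. Itgax was higher in MC903 resident library 8, at 7.07 CPM, and Cd207 in MC903 resident library 7, at 2.65 CPM. The basophil protease gene Mcpt8 reached 976 CPM in library 11 and 205 CPM in library 13. Prss34, another basophil protease gene, did not follow it: it stood at 4.76, 15.8, 0.38 and 0 CPM in the bone marrow libraries and was highest in MC903 resident library 7, at 42.0 CPM. The 3 basophil markers together ran from 270 to 1506 CPM in bone marrow, from 480 to 735 in untreated and from 433 to 663 CPM in MC903 resident libraries. Summed markers of keratinocytes, fibroblasts, neutrophils, T cells, and endothelial and red cells stayed at or below 39.7 CPM in every library. Total counts ran from 13068078 to 31781926, libraries 7, 8 and 15 had the most genes detected, and the mitochondrial share of counts was 1.22 to 1.70% in untreated, 2.39 to 3.96% in MC903 resident and 2.14 to 4.24% in bone marrow libraries. The part of these differences in the results was not tested. Each comparison is also given without library 15 and without libraries 7, 8 and 15 together.

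**Figure D1:**
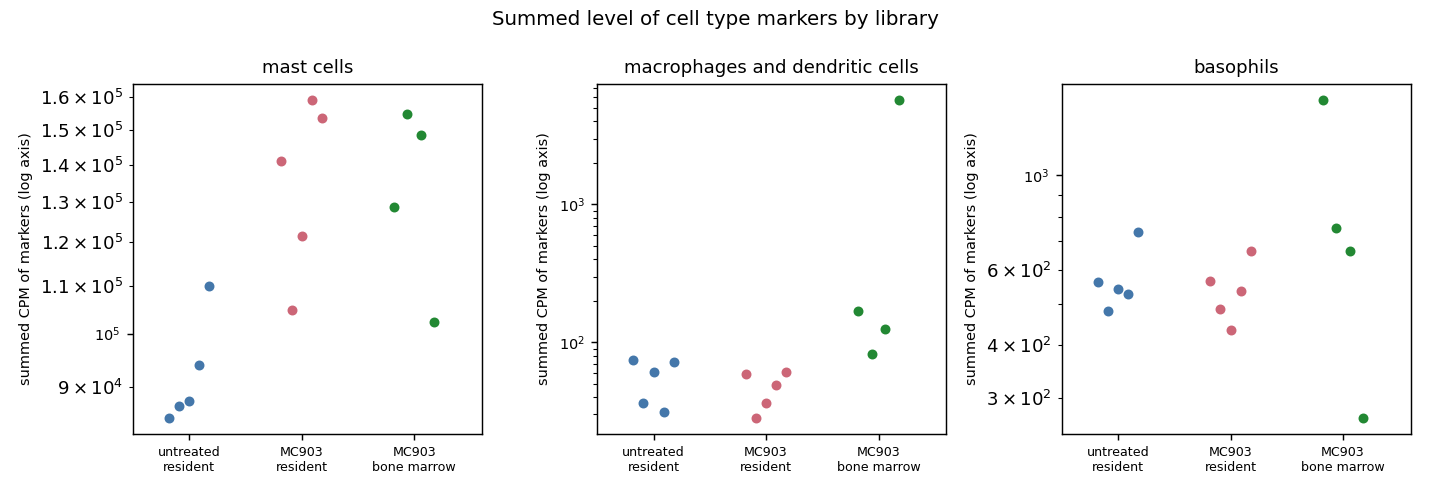
Summed CPM of marker genes for mast cells, macrophages with dendritic cells, and basophils (log axes, each with its own range), with 1 point per library in the 3 groups. Bone marrow library 15 lies at 5764 CPM of macrophage and dendritic cell markers, apart from all other libraries, and library 11 has the highest basophil sum, 1506 CPM.

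The plot of levels by library shows 3 patterns. Slc2a1, Slc2a3 and Pfkp had their highest mean in untreated resident cells and lower means in both MC903 groups. Gapdh, Pgk1 and Pkm were higher in every bone marrow library than in any resident library. Aldoa was lower in every MC903 resident library than in any library of the other groups, whose means were close (1053 CPM in untreated and 1006 CPM in bone marrow cells). Outside these patterns, Hk1, Hk2 and Ldha had their highest mean in bone marrow cells, with ranges that overlapped another group. All values below are CPM from whole libraries of pooled cells, in which fewer cells of a type and less RNA per cell cannot be told apart.

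**Figure D2:**
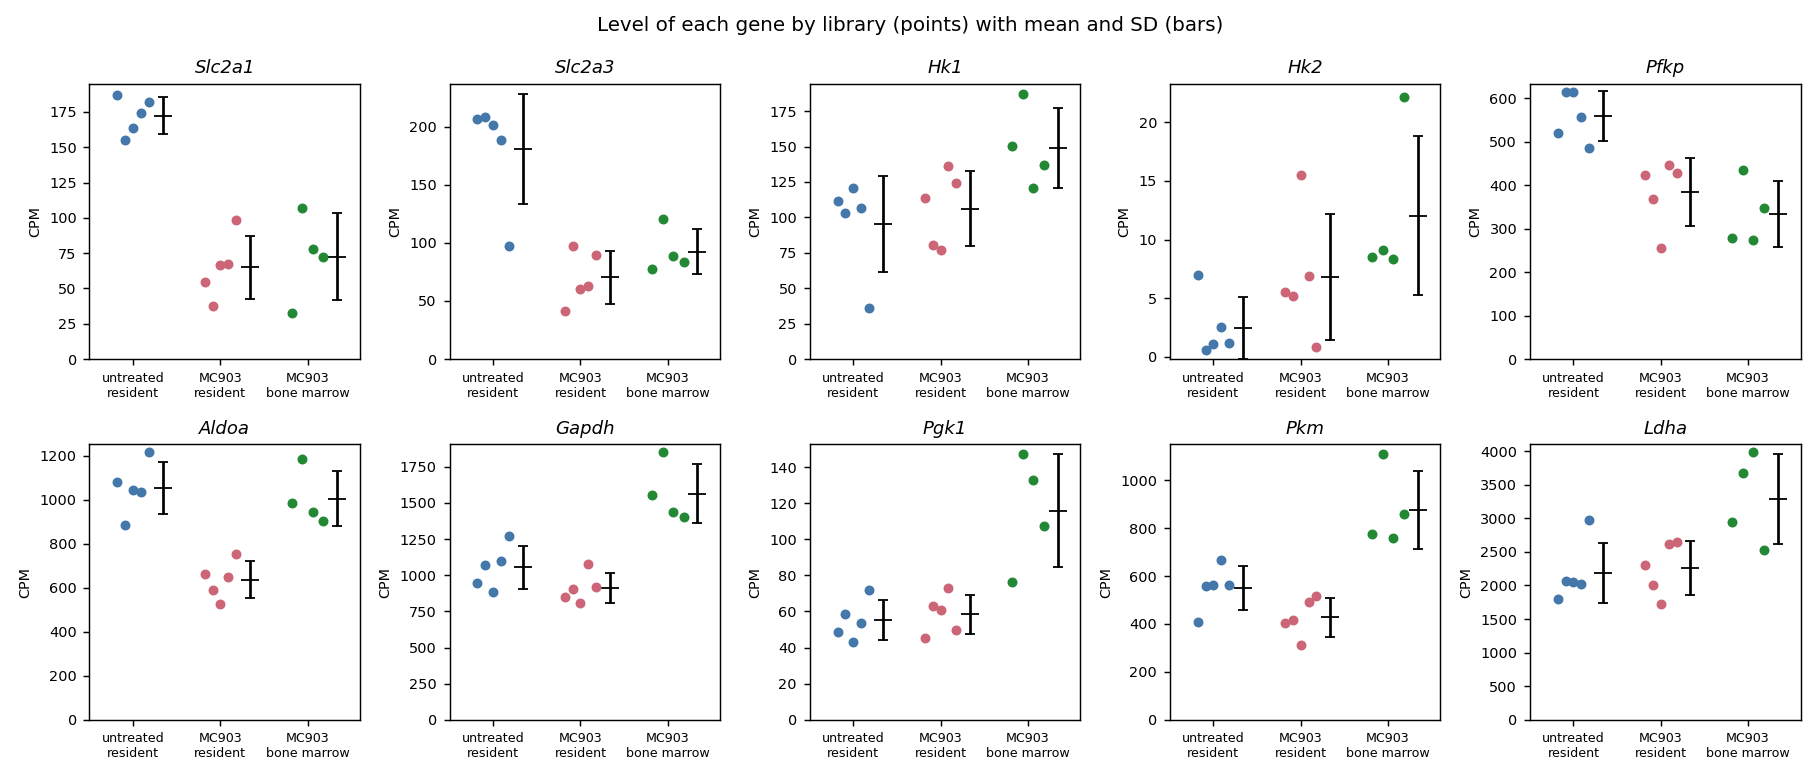
CPM of each of the 10 genes (vertical axes, each with its own range, linear) in every library of the 3 groups. Points are libraries, in library order from left to right, and black bars are the mean and SD (n = 5, 5 and 4). Slc2a1 lies at 155 to 187 CPM in untreated and at or below 107 CPM in all MC903 libraries, and Pkm lies above all other libraries in bone marrow cells (757 to 1110 CPM).

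Compared per length of exon, the genes differed widely in level. Ldha was the highest in all groups, at 660 ± 137 RPKM (CPM per kilobase of exon; SD, n = 5) in untreated resident, 683 ± 121 (SD, n = 5) in MC903 resident and 991 ± 202 RPKM (SD, n = 4) in bone marrow cells. Aldoa and Gapdh came next, at 362 ± 40.7 and 255 ± 36.3 RPKM (SD, n = 5) in untreated cells. Their ranges over libraries overlapped in each group, and Gapdh had the higher mean of the pair in both MC903 groups. Pkm came after them in each group, at 110 ± 18.5 RPKM (SD, n = 5) in untreated resident, 85.6 ± 16.1 (SD, n = 5) in MC903 resident and 175 ± 32.5 RPKM (SD, n = 4) in bone marrow cells, and it overlapped none of its neighbours in the order. Hk2 was the lowest in all groups, at 0.416 ± 0.441 RPKM (SD, n = 5) in untreated and 2.01 ± 1.13 RPKM (SD, n = 4) in bone marrow cells. In the middle of the order the transporter Slc2a1 came after Pkm in untreated cells with 49.2 ± 3.76 RPKM (SD, n = 5), overlapping Pfkp. In MC903 resident cells Pfkp, Pgk1, Slc2a1, Hk1 and Slc2a3 formed a run from 28.7 down to 9.70 RPKM in which each overlapped the next. In bone marrow cells Pgk1 stood clear of that run at 51.6 ± 13.9 RPKM (SD, n = 4).

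The first comparison, MC903 resident against untreated resident cells, asks what the treatment went with in mast cells already living in the skin. Both transporters and Aldoa fell. None of the 10 genes rose by edgeR, by the DESeq2 Wald test, by limma or at an unadjusted p under 0.05. By edgeR's quasi-likelihood test with Benjamini-Hochberg adjustment over 21014 genes, 3 of 10 genes were called, beside 2.25% of all genes tested (1.68% lower and 0.571% higher). Groups did not overlap for 4 of the 10, all lower, beside 5.33% of all genes (3.16% lower and 2.17% higher). The median log2 fold change was -0.29 over the 10 genes and 0.24 over all genes tested. When the 8209 genes averaging 10 CPM or more were fitted alone, 7.88% were called and their median was 0.028. The same 3 genes were called without each library in turn. Without libraries 7, 8 and 15 together only Slc2a3 was called, and Slc2a1 (log2 fold change -1.23) and Aldoa (-0.61) kept their direction.

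The second comparison, bone marrow against MC903 resident cells, both from treated mice, contrasts the 2 sorted kinds of mast cell. Here 4 of 10 genes rose, Aldoa, Gapdh, Pgk1 and Pkm, and none fell by any of the 3 tools or at an unadjusted p under 0.05, beside 2.27% of all genes called (1.32% higher and 0.952% lower). The group ranges were separate for these 4 genes, beside 8.29% of all genes (3.97% higher and 4.32% lower). The median log2 fold change was 0.60 over the 10 genes and -0.28 over all genes. The fit restricted to genes averaging 10 CPM or more called 6.86%, with a median of 0.026 over those genes, and without library 15 the median over all genes was -0.84. Without library 15 Ldha joined the 4. Without libraries 7, 8 and 15, Gapdh and Pkm were called, and without library 13 only Pkm was.

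The third comparison, bone marrow against untreated resident cells, shares its libraries with both of the others, so its values are set beside theirs and are no separate evidence. Gapdh, Pgk1 and Pkm rose and Slc2a1, Slc2a3 and Pfkp fell, which made 6 of 10 genes called, beside 6.87% of all genes (3.49% higher and 3.37% lower). Ranges were separate for 6 of the 10 (4 higher, with Hk2, and 2 lower), beside 10.4% of all genes (5.13% higher and 5.28% lower). The median log2 fold change was 0.58 over the 10 genes and -0.14 over all genes. The same restricted fit called 21.6%, with a median of 0.027, and without library 15 the median over all genes was -0.62. Without library 15, and also without libraries 7, 8 and 15, the count was again 6, with Ldha in and Slc2a3 out. It fell to 3 without untreated library 1, without untreated library 3 and without bone marrow library 11, and Slc2a1 and Pgk1 were called each time 1 library was left out.

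**Figure D3:**
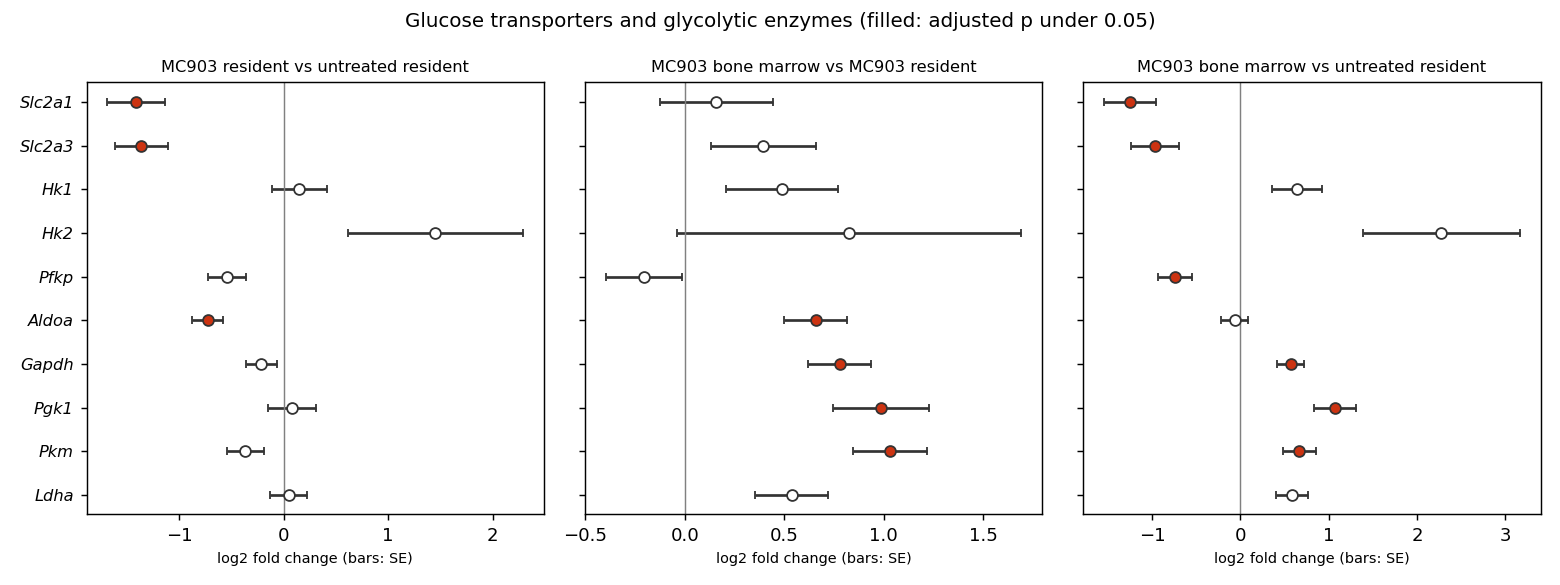
Log2 fold change with its standard error (horizontal axes, each with its own range) of the 10 genes in the 3 comparisons, filled where the adjusted p of edgeR's quasi-likelihood test was under 0.05. Slc2a1, Slc2a3 and Aldoa are filled to the left in the first panel, and Aldoa, Gapdh, Pgk1 and Pkm to the right in the second.

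Slc2a1 encodes GLUT1, the basal glucose transporter of most cells (ENSMUSG00000028645.11, GRCm38 chromosome 4, 119108711 to 119137983, plus strand). Its level was 187, 155, 164, 174 and 182 CPM in the untreated libraries. It was 54.8, 37.7, 66.8, 67.2 and 98.1 CPM in MC903 resident libraries 6 to 10, and 32.6, 107, 78.1 and 72.3 CPM in bone marrow libraries 11, 13, 14 and 15. Every untreated library lay above every MC903 library of either kind. Slc2a1 was 2.66-fold lower in MC903 resident than in untreated resident cells (log2 fold change -1.41 ± 0.274 SE, adjusted p = 0.00524, edgeR). It was 2.38-fold lower in bone marrow than in untreated cells (-1.25 ± 0.294 SE, adjusted p = 0.0105, edgeR). Between bone marrow and MC903 resident cells the ranges overlapped and the log2 fold change was 0.16 ± 0.285 SE (adjusted p = 0.822, edgeR).

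Slc2a3 encodes GLUT3, a high-affinity glucose transporter prominent in neurons and blood cells (ENSMUSG00000003153.10, chromosome 6, 122727809 to 122801640, minus strand). Its level was 207, 209, 202, 189 and 97.0 CPM in the untreated libraries. It was 41.7, 97.0, 60.7, 62.5 and 89.5 CPM in MC903 resident and 77.2, 120, 88.8 and 83.3 CPM in bone marrow libraries. Untreated library 5 lay far below the other 4 of its group, at 97.01 CPM against 96.96 CPM in MC903 resident library 7, so the resident groups were separate by that margin only. Slc2a3 was 2.57-fold lower in MC903 resident than in untreated cells (log2 fold change -1.36 ± 0.253 SE, adjusted p = 0.00362, edgeR), and it was called in this comparison under all 8 other settings and each time 1 library was left out. Against bone marrow cells the untreated range overlapped through library 5. The log2 fold change there was -0.97 ± 0.269 SE (adjusted p = 0.0318, edgeR), and over the alternatives the adjusted p ran from 0.00635 to 0.0916. Leaving out library 1, 2, 3, 4, 11, 14 or 15 ended the call.

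The hexokinases trap the glucose that the transporters bring in. Hk1 encodes the hexokinase found in most tissues (ENSMUSG00000037012.18, chromosome 10, 62268855 to 62379908, minus strand). It was at 111, 103, 121, 107 and 36.4 CPM in untreated, at 113, 80.2, 76.8, 136 and 124 CPM in MC903 resident and at 151, 187, 121 and 137 CPM in bone marrow libraries. Apart from untreated library 5, all values lay between 76.8 and 187 CPM. The log2 fold change was 0.15 ± 0.267 SE in MC903 resident against untreated, 0.49 ± 0.282 SE in bone marrow against MC903 resident and 0.64 ± 0.282 SE in bone marrow against untreated cells (adjusted p = 0.904, 0.379 and 0.188, edgeR), and no comparison passed the test.

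Hk2 encodes the inducible hexokinase that binds mitochondria and is raised in proliferating cells (ENSMUSG00000000628.10, chromosome 6, 82725025 to 82774454, minus strand). It was scarce, with 14 to 439 counts in a library. Its level was 7.0, 0.572, 1.08, 2.55 and 1.2 CPM in untreated, 5.5, 5.19, 15.5, 6.88 and 0.840 CPM in MC903 resident and 8.51, 9.08, 8.34 and 22.2 CPM in bone marrow libraries. All 4 bone marrow libraries lay above all 5 untreated ones, and library 15, the one with macrophage markers, was the highest of the 14. The log2 fold change of bone marrow against untreated cells was 2.28 ± 0.888 SE (adjusted p = 0.135, edgeR) and did not pass the test. It passed by the DESeq2 Wald test (2.27). With 1 library left out it did not pass and ran from 1.80 (without library 15) to 3.14 (without untreated library 1). The values against MC903 resident cells were 0.83 ± 0.866 SE (adjusted p = 0.668, edgeR), and those of MC903 resident against untreated cells 1.45 ± 0.838 SE (adjusted p = 0.538, edgeR). With 1 library left out these ran from 0.36 (without library 15) to 1.31 (without library 8), and from 0.98 (without library 8) to 2.34 (without library 1), none passing the test.

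Pfkp encodes the platelet form of phosphofructokinase, the committing step of glycolysis (ENSMUSG00000021196.14, chromosome 13, 6579768 to 6648777, minus strand). Its level was 519, 614, 615, 556 and 486 CPM in untreated, 424, 369, 256, 446 and 428 CPM in MC903 resident and 278, 436, 274 and 347 CPM in bone marrow libraries. The untreated libraries lay above all MC903 libraries of either kind, as for Slc2a1. Pfkp was 1.67-fold lower in bone marrow than in untreated cells (log2 fold change -0.74 ± 0.194 SE, adjusted p = 0.0217, edgeR). The call was lost without library 11 or without library 14 (-0.67 and -0.66). In MC903 resident against untreated cells the log2 fold change of -0.54 ± 0.181 SE did not pass the test (adjusted p = 0.146, edgeR), although limma with sample weights called it (-0.62). Between bone marrow and MC903 resident cells it was -0.20 ± 0.192 SE (adjusted p = 0.623, edgeR). Pitrm1, on the opposite strand, overlaps Pfkp and reached 111 CPM; whether strand was used in counting is not given in the sources used here.

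Aldoa encodes aldolase A, which splits fructose-1,6-bisphosphate (ENSMUSG00000030695.16, chromosome 7, 126795234 to 126800751, minus strand). It was at 1082, 887, 1043, 1037 and 1218 CPM in untreated, at 662, 591, 527, 651 and 756 CPM in MC903 resident and at 986, 1184, 946 and 906 CPM in bone marrow libraries. The MC903 resident libraries lay below all others, and the untreated and bone marrow ranges overlapped. Aldoa fell 1.65-fold in MC903 resident against untreated cells (log2 fold change -0.72 ± 0.150 SE, adjusted p = 0.00863, edgeR). It was 1.58-fold higher in bone marrow than MC903 resident cells (0.66 ± 0.157 SE, adjusted p = 0.0289, edgeR). That call was lost without library 4, 6, 7, 8, 9, 11 or 13, with log2 fold changes of 0.52 to 0.67, and under 3 of the 8 other settings. Bone marrow and untreated cells differed by -0.07 ± 0.158 SE (adjusted p = 0.873, edgeR). A second gene identifier with the symbol Aldoa held 252 counts in all libraries together and was not used.

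The steps from here on recover NADH and ATP. Gapdh encodes glyceraldehyde-3-phosphate dehydrogenase, often used as a reference gene (ENSMUSG00000057666.18, chromosome 6, 125161715 to 125166467, minus strand). Its level was 948, 1073, 884, 1097 and 1272 CPM in untreated, 849, 905, 808, 1075 and 919 CPM in MC903 resident and 1556, 1853, 1438 and 1406 CPM in bone marrow libraries. All 4 bone marrow libraries lay above all 10 resident libraries. Gapdh was 1.72-fold higher than in MC903 resident cells (log2 fold change 0.78 ± 0.157 SE, adjusted p = 0.00840, edgeR) and 1.48-fold higher than in untreated cells (0.57 ± 0.157 SE, adjusted p = 0.0304, edgeR). The first call was lost without library 13 (0.66, adjusted p = 0.0519, edgeR), and the second without library 1, 3, 11 or 13 (0.47 to 0.56). Between the resident groups the log2 fold change was -0.21 ± 0.149 SE (adjusted p = 0.656, edgeR). Iffo1, on the opposite strand, overlaps Gapdh and reached 94.9 CPM.

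Pgk1 encodes phosphoglycerate kinase, the first ATP-yielding step (ENSMUSG00000062070.12, chromosome X, 106187100 to 106203699, plus strand). It was at 48.4, 58.4, 42.9, 53.8 and 72.0 CPM in untreated, at 45.4, 63.0, 60.9, 72.8 and 49.8 CPM in MC903 resident and at 76.2, 147, 133 and 107 CPM in bone marrow libraries. Bone marrow library 11 lay just above the highest resident library, and the other 3 lay well above it. Pgk1 was 1.98-fold higher than in MC903 resident cells (log2 fold change 0.99 ± 0.242 SE, adjusted p = 0.0328, edgeR) and 2.10-fold higher than in untreated cells (1.07 ± 0.242 SE, adjusted p = 0.00772, edgeR). The first call was lost without library 4, 6, 7, 8, 10, 13 or 14 (0.82 to 0.97) and under 4 of the 8 other settings, and over all alternatives its adjusted p ran from 0.0165 to 0.172. The second call held each time 1 library was left out. The resident groups differed by 0.08 ± 0.229 SE (adjusted p = 0.943, edgeR).

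Pkm encodes the muscle-type pyruvate kinases, which make pyruvate and ATP; its splice forms M1 and M2 are not separated by gene counts (ENSMUSG00000032294.17, chromosome 9, 59656368 to 59679375, plus strand). Its level was 407, 561, 562, 666 and 562 CPM in untreated, 403, 415, 313, 491 and 517 CPM in MC903 resident and 775, 1110, 757 and 860 CPM in bone marrow libraries. All bone marrow libraries lay above all resident ones. Pkm was 2.05-fold higher in bone marrow than MC903 resident cells (log2 fold change 1.03 ± 0.187 SE, adjusted p = 0.00355, edgeR). This was the one call among the 10 genes in that comparison that held each time 1 library was left out, with an adjusted p of at most 0.0206 (edgeR). Against untreated cells Pkm was 1.59-fold higher (0.67 ± 0.187 SE, adjusted p = 0.0323, edgeR), a call lost without library 1, 2, 3 or 13 (0.52 to 0.67). MC903 resident and untreated cells differed by -0.37 ± 0.177 SE (adjusted p = 0.400, edgeR).

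Ldha encodes the lactate dehydrogenase subunit that favours lactate formation (ENSMUSG00000063229.15, chromosome 7, 46841475 to 46855627, plus strand). It was at 1804, 2072, 2049, 2027 and 2973 CPM in untreated, at 2306, 2013, 1717, 2624 and 2646 CPM in MC903 resident and at 2940, 3675, 3987 and 2522 CPM in bone marrow libraries. Untreated library 5 was high and bone marrow library 15 low within their groups, and the ranges overlapped in all comparisons. No comparison passed the test. The log2 fold change was 0.54 ± 0.184 SE in bone marrow against MC903 resident (adjusted p = 0.136, edgeR), 0.59 ± 0.184 SE in bone marrow against untreated (adjusted p = 0.0608, edgeR) and 0.05 ± 0.174 SE in MC903 resident against untreated cells (adjusted p = 0.958, edgeR). Without library 15 the first 2 were 0.65 and 0.70 and passed the test, and the second also passed without library 5 (0.72), without library 8 or 10 (0.58) and under 7 of the 8 other settings. The first passed also with no filter on low counts (0.59) and by limma (0.63).

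Processed copies of these genes were sought by symbol only. The 11 pseudogenes and retrogenes named after Aldoa, Gapdh, Pgk1 and Ldha each stayed at or below 3.09 CPM. Copies with unrelated symbols were not counted. How reads shared between copies were treated was not given in the sources used here.

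Related enzymes can stand in for one another, so 5 pairs of paralogs were compared as the log2 ratio of their counts within a library, a value that does not depend on the scaling between libraries. Exact two-sided permutation tests over libraries gave no difference that passed Benjamini-Hochberg adjustment over the 15 tests. The smallest p such a test can give is 0.00794 with 5 against 5 libraries and 0.0159 with 4 against 5, so a single ratio could not have passed alone (adjusted 0.119 and 0.238), and the lack of a call is no evidence that ratios were alike. The ratio of Slc2a3 to Slc2a1 had a mean of 0.02 ± 0.53 (SD, n = 5) in untreated, 0.12 ± 0.70 (SD, n = 5) in MC903 resident and 0.45 ± 0.53 (SD, n = 4) in bone marrow libraries. MC903 resident and untreated libraries differed by 0.10 in this ratio (exact permutation p = 0.825, adjusted p = 0.841). The ratio of Hk2 to Hk1 was -5.69 ± 1.40 (SD, n = 5) in untreated, -4.42 ± 1.75 (SD, n = 5) in MC903 resident and -3.75 ± 0.77 (SD, n = 4) in bone marrow libraries. Bone marrow and untreated libraries differed by 1.95 (exact permutation p = 0.0476, adjusted p = 0.179). Per length of exon, Hk1 exceeded Hk2 in all 14 libraries.

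**Figure D4:**
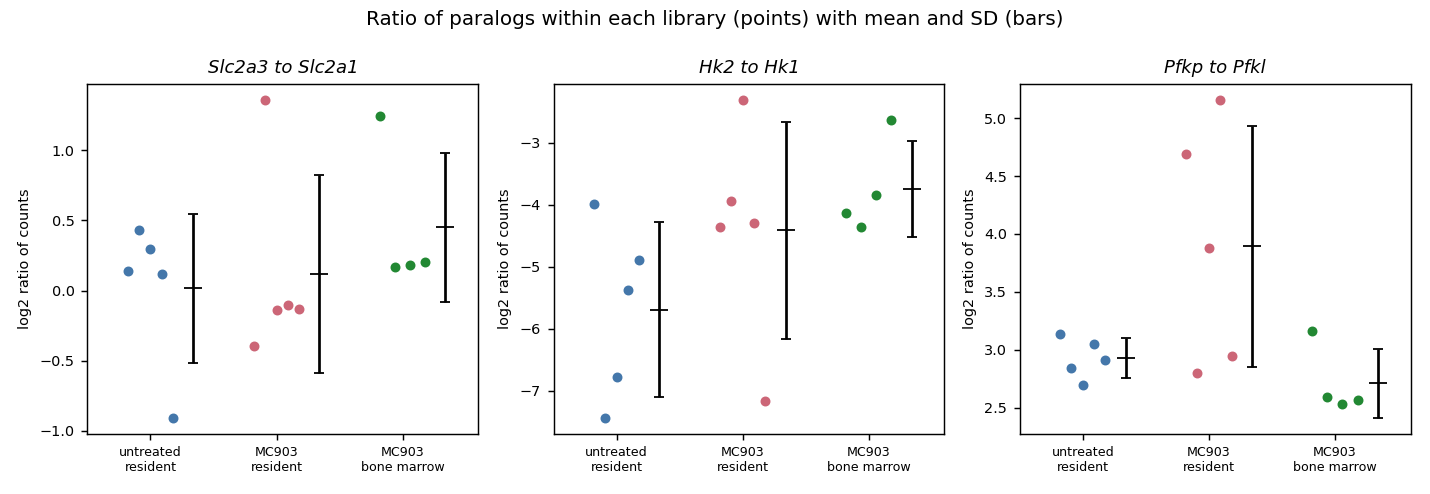
Log2 ratio of counts of Slc2a3 to Slc2a1, Hk2 to Hk1 and Pfkp to Pfkl within each library (points), with mean and SD (black bars) in the 3 groups; each vertical axis has its own range. Slc2a3 to Slc2a1 stays within 0.43 of 0 in 11 of the 14 libraries and lies at -0.91 in library 5, 1.36 in library 7 and 1.24 in library 11.

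Pfkl encodes the liver form of phosphofructokinase. It was at 59.2 to 95.1 CPM in untreated, 12.5 to 55.6 CPM in MC903 resident and 31.1 to 72.4 CPM in bone marrow libraries. The resident groups did not overlap, but the log2 fold change of -1.26 ± 0.380 SE did not pass the test (adjusted p = 0.0936, edgeR). It passed under 2 of the 8 other settings (-1.64 and -1.30) and in 0 of the 14 fits with 1 library left out. Pfkp to Pfkl was 2.93 ± 0.17 (SD, n = 5) in untreated and 2.71 ± 0.30 (SD, n = 4) in bone marrow libraries, and it spread from 2.80 to 5.16 in MC903 resident libraries. Aldoc, the brain form of aldolase, and Ldhb, the heart form of lactate dehydrogenase, were scarce. Aldoc was at 31.8, 0.416, 21.1 and 0 CPM in the bone marrow libraries, at 0.336 to 10.6 CPM in MC903 resident libraries and at 0 in 4 of the 5 untreated ones. The lowest p of the 15 was that of Aldoa to Aldoc between the resident groups, a difference of -6.65 (exact permutation p = 0.0159, adjusted p = 0.179). Its size rests on the pseudocount of 0.5, since Aldoc was at 0 in 4 untreated libraries, and with a pseudocount of 5 it was -4.15. Ldha to Ldhb differed by -3.53 between the resident groups and by 3.78 between bone marrow and MC903 resident libraries (exact permutation p = 0.0397 and 0.0317, adjusted p = 0.179 for each), and with a pseudocount of 5 by -1.70 and 2.28. Ldhb stayed at or below 2.06 CPM in all libraries against at least 1717 CPM of Ldha.

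Among 18 other glycolytic enzymes, a list chosen with earlier results of these data known, 0 passed edgeR's test in MC903 resident against untreated cells, with a median log2 fold change of 0.15 over the list; 2 had an unadjusted p under 0.05, 1 was called by DESeq2 and 2 by limma. Between bone marrow and MC903 resident cells edgeR called 3 higher and 0 lower, with a median log2 fold change over the list of -0.19; 2 were lower at an unadjusted p under 0.05, and DESeq2 and limma each called 1 lower. Against untreated cells edgeR called 5 higher and 1 lower, with a median of -0.21. Beside these and the list counts that follow, edgeR called 2.25%, 2.27% and 6.87% of all genes in the 3 comparisons, DESeq2 5.6%, 8.81% and 16.1% of those it gave an adjusted p, and limma 6.46%, 9.86% and 10.5%. At an unadjusted p under 0.05 edgeR's shares of all genes were 6.07% higher and 6.56% lower in the first comparison, 7.04% and 10.6% in the second, and 9.76% and 11.5% in the third. Gpi1, which isomerises glucose-6-phosphate, was at 202 to 241 CPM in bone marrow, 75.5 to 132 CPM in MC903 resident and 108 to 166 CPM in untreated libraries. It was higher by 1.0 ± 0.200 SE on the log2 scale in bone marrow than MC903 resident cells (adjusted p = 0.00799, edgeR). Eno1, the enolase of most tissues, was at 586 to 835 CPM in bone marrow, above 282 to 430 CPM in MC903 resident and 225 to 418 CPM in untreated libraries. Its log2 fold change in bone marrow was 0.96 ± 0.195 SE against MC903 resident and 1.13 ± 0.196 SE against untreated cells (adjusted p = 0.00876 and 0.000817, edgeR). Pgam1, a phosphoglycerate mutase, was at 54.1 to 71.5 CPM in bone marrow, 16.5 to 44.8 CPM in MC903 resident and 10.6 to 24.0 CPM in untreated libraries. Its log2 fold change was 1.24 ± 0.327 SE against MC903 resident cells (adjusted p = 0.0494, edgeR), a call that held in 4 of the 14 fits with 1 library left out and under 3 of the 8 other settings, and 1.85 ± 0.330 SE against untreated cells (adjusted p = 0.00106, edgeR).

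The 1 enzyme that fell by edgeR was Pfkm, the muscle form of phosphofructokinase. It was at 152 to 211 CPM in untreated, 95.0 to 202 CPM in MC903 resident and 11.02, 88.5, 33.9 and 11.01 CPM in bone marrow libraries. Its log2 fold change in bone marrow against untreated cells was -2.26 ± 0.502 SE (adjusted p = 0.00980, edgeR). It was lost without library 14 (-2.23), and without library 13 the value was -3.22. Against MC903 resident cells the ranges were separate and the log2 fold change was -1.87 ± 0.494 SE (adjusted p = 0.0614, edgeR), which passed under 6 of the 8 other settings, and without library 13 (-2.85). Of the 5 that rose, Aldoc rested on the libraries given above. Hk3, a hexokinase of myeloid cells that was named after its values were seen, was at 113 CPM in library 15 and at 0.213 to 6.06 CPM in libraries 11, 13 and 14. Without library 15, where Csf1r was at 1100 CPM, its log2 fold change against untreated cells went from 7.44 to 4.0 and the call was lost.

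Of 8 regulators of glycolytic flux, 1 was called in each comparison, and the medians over the list were 0.29, -0.29 and 0.30 in the order given above. Txnip, which promotes removal of GLUT1 and GLUT4 from the cell surface and is itself induced by glucose, fell in all 3. It was at 676 to 994 CPM in untreated, 284 to 465 CPM in MC903 resident and 137 to 240 CPM in bone marrow libraries, with no overlap between any of the groups. The log2 fold change was -1.11 ± 0.185 SE in MC903 resident against untreated, -0.96 ± 0.198 SE in bone marrow against MC903 resident and -2.07 ± 0.207 SE in bone marrow against untreated cells (adjusted p = 0.00144, 0.0104 and 2.01e-06, edgeR). Each of these calls held under all 22 alternatives. Of the 10 other SLC2 transporters 7 passed the filter on low counts, and none was called in any comparison by edgeR. In each comparison 1 of them had an unadjusted p under 0.05, DESeq2 called 1 between the resident groups and 0 elsewhere, and limma called 0.

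Of 17 genes that handle pyruvate and lactate, 0 were called between the resident groups by edgeR, where 3 had an unadjusted p under 0.05 and DESeq2 and limma each called 1. In bone marrow cells edgeR called 2 higher against MC903 resident and 3 higher against untreated cells, and 0 lower. Against MC903 resident cells 0 were lower at an unadjusted p under 0.05, and DESeq2 and limma each called 3 higher and 0 lower. Against untreated cells 2 were lower at an unadjusted p under 0.05, DESeq2 called 3 higher and 2 lower, and limma 3 higher and 0 lower. The medians over the list were 0.08, 0.37 and 0.21. Emb, or embigin, a chaperone of monocarboxylate transporters, was at 156 to 262 CPM in bone marrow, 22.0 to 44.2 CPM in MC903 resident and 20.1 to 29.2 CPM in untreated libraries. Its log2 fold change was 2.56 ± 0.244 SE against MC903 resident and 3.0 ± 0.247 SE against untreated cells (adjusted p = 7.11e-06 and 3.56e-07, edgeR). Slc16a3, or MCT4, a lactate exporter, was at 36.8 to 48.5 CPM in bone marrow libraries, 6.35 to 14.8 CPM in MC903 resident and 4.45 to 21.7 CPM in untreated ones. It rose by 1.91 ± 0.448 SE and 1.81 ± 0.447 SE on the log2 scale (adjusted p = 0.0257 and 0.0145, edgeR), and the first call was lost without library 7, 8, 10, 13 or 14 (1.72 to 1.93). Bsg, or basigin, the other chaperone of these transporters, was at 244 to 336 CPM in bone marrow and 148 to 217 CPM in untreated libraries. It rose by 0.69 ± 0.175 SE in that comparison (adjusted p = 0.0184, edgeR; 0.58 and not called without library 13).

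In the pentose phosphate pathway, which branches off at glucose-6-phosphate and supplies NADPH and ribose, 0 of 7 genes were called between the resident groups by edgeR, DESeq2 or limma, and 0 had an unadjusted p under 0.05. In bone marrow cells 1 rose against MC903 resident and 4 rose against untreated cells. The medians over the list were 0.24, 0.72 and 0.76. Tkt, transketolase, was at 181 to 240 CPM in bone marrow, 69.9 to 118 CPM in MC903 resident and 61.3 to 110 CPM in untreated libraries. It rose by 1.21 ± 0.215 SE against MC903 resident and by 1.12 ± 0.215 SE against untreated cells (adjusted p = 0.00332 and 0.00209, edgeR). Pgls, Pgd and Taldo1 rose against untreated cells by 1.12 ± 0.261, 0.90 ± 0.271 and 0.76 ± 0.224 SE (adjusted p = 0.00953, 0.0481 and 0.0438, edgeR). Unlike those of Tkt, their bone marrow and untreated ranges overlapped. Pgls was at 121 to 247 against 45.4 to 130 CPM, Pgd at 46.0 to 110 against 29.5 to 48.1 CPM and Taldo1 at 382 to 461 against 162 to 418 CPM. In that comparison DESeq2 called 4 genes of the list higher and limma 3. The Pgd call held in 3 and the Taldo1 call in 7 of the 14 fits with 1 library left out. Library 15 was the highest in both Pgd (110 CPM) and Pgls (247 CPM), and without it Pgd stood at 0.62 and Taldo1 at 0.74, neither called.

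**Figure D5:**
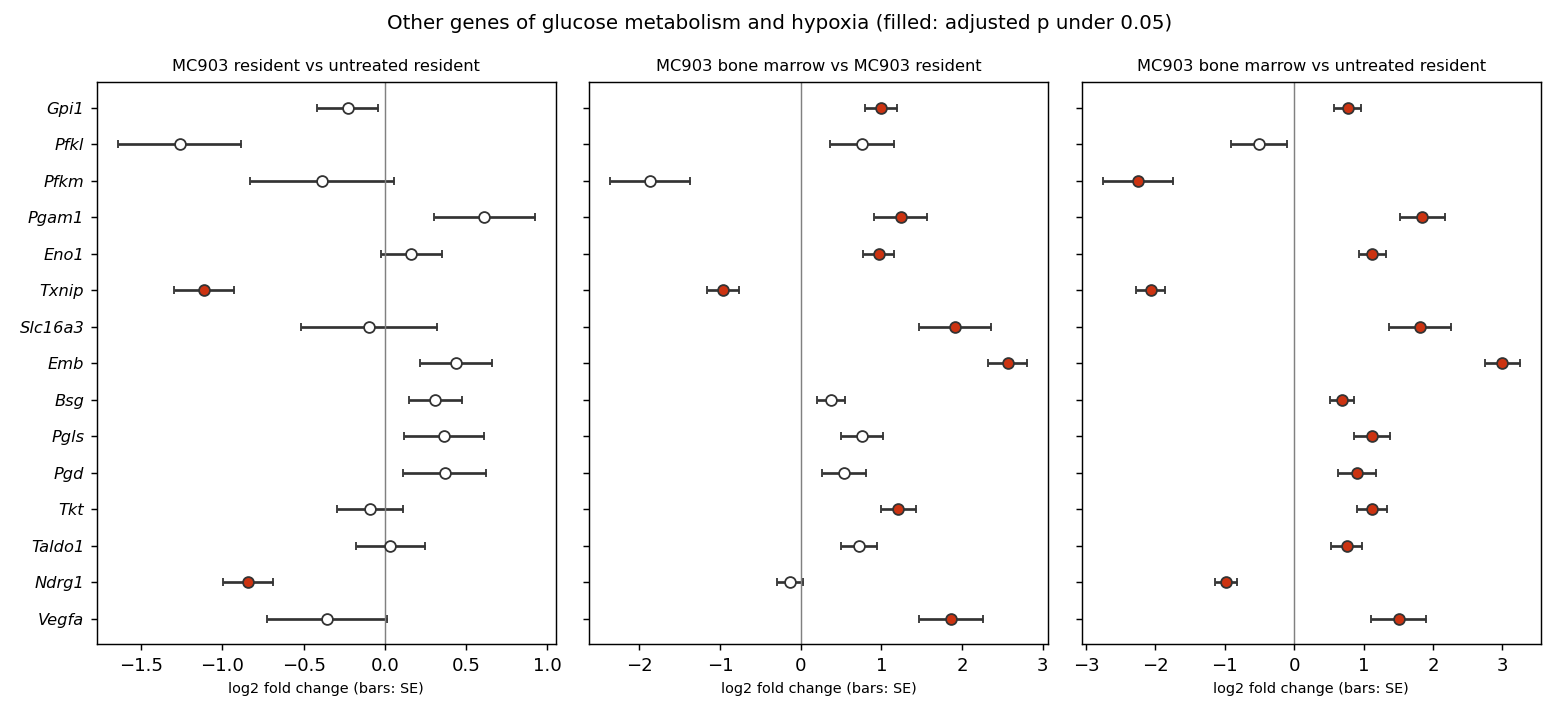
Log2 fold change with its standard error (horizontal axes, each with its own range) of 15 other genes of glucose metabolism and hypoxia in the 3 comparisons, filled where the adjusted p of edgeR's quasi-likelihood test was under 0.05. Txnip lies to the left in all panels, and Emb lies at 2.56 and 3.0 in the second and the third. Aldoc and Hk3, whose fitted values are larger and rest on few libraries, are not drawn.

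Of 18 hypoxia factors and hypoxia targets outside glycolysis, 17 passed the filter on low counts. In MC903 resident against untreated cells edgeR called 1 lower and 0 higher; 7 were lower and 0 higher at an unadjusted p under 0.05, DESeq2 called 1 lower and limma 4 lower. Between bone marrow and MC903 resident cells edgeR called 1 higher and 0 lower; 1 was lower at an unadjusted p under 0.05, and DESeq2 and limma each called 1 higher and 1 lower. Between bone marrow and untreated cells edgeR called 1 higher and 1 lower, DESeq2 2 and 2, and limma 2 and 1; 2 were higher and 5 lower at an unadjusted p under 0.05. The medians over the list were -0.36, 0.25 and -0.20. Ndrg1, a stress-responsive gene, was at 1908 to 2778 CPM in untreated, 1166 to 1515 CPM in MC903 resident and 960 to 1457 CPM in bone marrow libraries. Its log2 fold change was -0.84 ± 0.153 SE in MC903 resident against untreated and -0.98 ± 0.165 SE in bone marrow against untreated cells (adjusted p = 0.00302 and 0.000596, edgeR), and both calls held each time 1 library was left out. Vegfa, an angiogenic growth factor, was at 80.8 to 187 CPM in bone marrow, 14.5 to 85.1 CPM in MC903 resident and 37.7 to 64.3 CPM in untreated libraries. It rose by 1.86 ± 0.396 SE against MC903 resident and by 1.5 ± 0.393 SE against untreated cells (adjusted p = 0.0134 and 0.0217, edgeR). The first call was lost without library 6 or 7 (1.76 and 1.62) and the second without library 1, 5, 13 or 14 (1.37 to 1.41).

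The genes whose pattern was most like that of a member were found among 7844 candidates by the root mean square difference of log2 levels over the 14 libraries, each centred on its own mean. This was done for the 3 members with the widest range of group means. Slc2a1 was followed most closely by Arl5b, Sertad1 and Tiparp (differences of 0.32, 0.33 and 0.34). Slc2a3 was followed most closely by Plekho2, Arih2 and Lmna (0.25, 0.29 and 0.34). For Hk2 the nearest were Mki67, a marker of proliferating cells, Gpr146 and Cenpa, a centromere histone (0.74, 0.79 and 0.98). Mki67 had means of 23.0, 80.6 and 129 CPM in untreated resident, MC903 resident and bone marrow cells. These likenesses are descriptions over libraries that share their groups and carry no test.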

How the data were processed

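Gene counts, as whole numbers of reads per gene, were deposited by the authors in 1 table for all libraries. STAR, featureCounts and mm10 are named in the submitters' processing notes, without versions or roles, and the strand setting is not given in the sources used here. The table's gene lengths (total exon length, per the file headers) gave RPKM. Of 55487 gene IDs, 55094 had the same version and coordinates in GENCODE M21 (GRCm38).

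Genes were filtered with filterByExpr (minimum count 10, minimum total 15), which left 21014, and scaled by TMM. A model of 3 groups over 14 libraries was fitted with edgeR 4.0.16 (glmQLFit, robust; glmQLFTest) in R 4.3.3, with Benjamini-Hochberg adjustment and a threshold of 0.05. The same fit was run on simulated counts in which 200 genes were changed. Its outcome is not given here, so it tells nothing about recovery at the fold changes reported above. Paralog ratios used a pseudocount of 0.5 and exact permutation tests (SciPy 1.17.1). DESeq2 1.42.0 and limma 3.58.1 were alternatives. SMART-Seq HT reads carry no molecular identifiers here, so counts are not independent molecules.

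The members and lists were chosen with earlier results of these data known. The named genes were all members, the paralogs of the ratios and, from each list, at most 4 called genes per comparison with the smallest adjusted p. Hk3 falls outside this rule and was named after its values were seen. Library numbers are 1 running series and pair no samples.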

Additional observations from a re-analysis of the deposited data

Results flagged for a closer look

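In 123 groups of 4 or 5 libraries, 15 values (12.2%) lay farther from the rest of their group than Dixon's 95% limit allows, where chance gives about 1 in 20. Untreated library 5 gave the low values of Slc2a3 (97.0 CPM, others 189 to 209) and Hk1 (36.4 CPM, others 103 to 121), a high Ldha (2973 CPM, others 1804 to 2072), Hk3 at 0.579 CPM (others at most 0.150) and a log2 ratio of Slc2a3 to Slc2a1 of -0.91 (others 0.12 to 0.43). Bone marrow library 15 gave the highest Hk2 (22.2 CPM, others 8.34 to 9.08), Hk3 at 113 CPM (others 0.213 to 6.06) and summed macrophage and dendritic cell markers of 5764 CPM (others 82.9 to 170). Bone marrow library 11 had high log2 ratios of Slc2a3 to Slc2a1 (1.24, others 0.17 to 0.21) and of Pfkp to Pfkl (3.16, others 2.53 to 2.59). MC903 resident library 7 had a log2 ratio of Slc2a3 to Slc2a1 of 1.36 (others -0.39 to -0.10), and library 8 summed T cell markers of 9.06 CPM (others 4.27 to 4.62). Untreated library 3 had Aldoc at 0.561 CPM (others at 0), Ldhb at 0.636 CPM (others at most 0.113) and a log2 ratio of Aldoa to Aldoc of 10.8 (others 15.2 to 15.7).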

How the results depend on the processing

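No paired analysis was possible because the library numbers are 1 running series and no groups share a number. Leaving out libraries 7, 8 and 15 together was chosen with earlier results of these data known. Of the alternatives, other scalings moved the median over all genes, on the log2 scale, by over 0.1: in MC903 resident against untreated cells it went from 0.24 to 0.40 with DESeq2 size factors and 0.45 with TMM factors from genes of at least 10 CPM, and in bone marrow against MC903 resident cells from -0.28 to -0.43 with each. With other choices the median was 0.73 and -1.18 in these comparisons with no filter, 0.38 and -0.79 by limma, and 0.34 and -0.84 without library 15. In bone marrow against untreated cells (-0.14) it was -0.46 by limma and -0.62 without library 15. Every call among the 10 genes kept its direction under all alternatives, though not always its call. The number of the 10 called in MC903 resident against untreated cells went from 3 to 1 without libraries 7, 8 and 15. In bone marrow against MC903 resident cells it went from 4 to 2 with DESeq2 size factors, 2 with only the groups compared and 2 without libraries 7, 8 and 15, and from 1 (without library 13) to 5 (without library 15) with 1 library left out. In bone marrow against untreated cells it ran from 3 to 7 with 1 library left out. Of the 8 settings that leave out no single library, 7 kept the Slc2a1 and Aldoa calls between the resident groups. For bone marrow against MC903 resident cells 5 kept Aldoa, 4 Pgk1, 3 Pgam1 and 7 each Eno1, Gpi1, Slc16a3 and Vegfa. Against untreated cells 7 kept Slc2a3, Gpi1 and Bsg, 6 Taldo1 and 4 Pgd. Hk2 has no value under the filter at 10 CPM.

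Over all genes, MC903 resident against untreated cells gave 473 calls (120 higher), 501 with size factors (207 higher), 517 with the other TMM factors (251 higher), 1072 with the DESeq2 Wald test (600 higher), 1357 with limma (660 higher) and 253 without libraries 7, 8 and 15. Bone marrow against MC903 resident cells gave 477 (277 higher), 409 with size factors (167 higher), 432 with the other TMM factors (178 higher), 748 without a filter, 1721 by DESeq2 (445 higher), 2073 by limma (679 higher), 315 with only the groups compared, and 298 to 704 with 1 library left out. Bone marrow against untreated cells gave 1443, 2758 by DESeq2 and 2212 by limma.

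Values that did not pass the test changed sign as follows, and the cause was not tested. In MC903 resident against untreated cells Slc16a3 (-0.10) was 0.039 with size factors and with DESeq2, 0.071 with the other TMM factors and with the filter at 10 CPM, and 0.16 without libraries 7, 8 and 15. Tkt (-0.09) was 0.067, 0.12, 0.12 and 0.066 with size factors, the other TMM factors, the filter at 10 CPM and DESeq2, and Taldo1 (0.03) was -0.0045 without a filter. In bone marrow against MC903 resident cells Slc2a1 was -0.032 without libraries 7, 8 and 15 and Aldoc -0.33 by limma, and in bone marrow against untreated cells Ldhb was -0.18 by limma and -1.07 without libraries 7, 8 and 15. With 1 library left out, MC903 resident against untreated values ran from -0.052 to 0.32 for Hk1, -0.0019 to 0.21 for Ldha, -0.30 to 0.26 for Slc16a3, -0.080 to 0.29 for Taldo1, -0.20 to 0.10 for Tkt and -0.21 to 0.23 for the ratio of Slc2a3 to Slc2a1. Bone marrow against MC903 resident values ran from -0.11 to 0.40 for Slc2a1, -0.019 to 1.197 for the ratio of Hk2 to Hk1 and -0.58 to 2.81 for that of Aldoa to Aldoc. Bone marrow against untreated values ran from -1.06 to 2.39 for Ldhb and -0.62 to 1.23 for the ratio of Ldha to Ldhb.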
